A study of Homo sapiens with 12 samples.

Results

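The joint effect of TRIM22 knockdown and irradiation was measured by setting A549 cells that carried the TRIM22 hairpin and were taken 3 days after ionizing radiation against untreated cells with the control hairpin. The comparison uses 6 of the 12 libraries of the series, chosen by the labels of hairpin and treatment, 3 of each kind. A549 is an established human lung cancer line (non-small cell). It was stably transfected with a control short hairpin RNA (shControl) or with one against TRIM22 (shTRIM22), and poly(A) RNA was sequenced. Each hairpin has 1 stable population in the labels, so what the loss of TRIM22 does and how the populations differ otherwise cannot be told apart. The 6 libraries left over, shControl irradiated and shTRIM22 sham, give the single effects, against which the joint effect is set. The radiation dose and the time at which sham cells were taken are not given in the labels.

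Ionizing radiation breaks DNA, and the damage kinases then stabilise the transcription factor p53, which A549 cells carry without mutation. Active p53 switches on inhibitors of the cell cycle, repair enzymes, death receptors and its own ubiquitin ligase MDM2. Through the inhibitor p21 it also keeps the repressor complex DREAM on the promoters of mitotic genes, many of which hold a CHR element and CCAAT boxes. TRIM22 is a RING-type ubiquitin ligase of the tripartite motif family, induced by interferon and by p53. Interferon-stimulated genes share a promoter element called ISRE, to which the interferon-activated factor complex binds.

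The joint effect is the log2 fold change of shTRIM22 irradiated over shControl sham libraries. The sum is the log2 effect of irradiation in shControl cells plus the log2 effect of knockdown without irradiation, and joint minus sum tells how far the joint effect lay from additivity on the log2 scale. Both single effects and the joint effect are measured against the same 3 shControl sham libraries, so they are not independent of each other. All values came from edgeR's quasi-likelihood test with 1 mean per group over the 12 libraries, and a gene was called at a Benjamini-Hochberg adjusted p below 0.05 over 17094 genes. Levels are CPM, which are counts scaled to a common library size, and a mean ± SD covers the 3 libraries of its group. The study's design text speaks of biological replicates but not of what separated them, and the p-values reflect no more than the variation among these libraries.

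The 6 libraries compared held 15646282 to 17063837 counts, and all 12 held 14468386 to 17872154. Genes that mark the A549 line summed to between 14499 and 18367 CPM in every library, and CDKN2A, which A549 has lost, had at most 1 count. The lung markers HOPX and SCGB1A1 were at 0 in all 12 libraries, as was the blood marker CD3E. SFTPC and NKX2-1, which define alveolar cells, had 1 to 5 and 0 to 5 counts. Lung alveolar and airway genes summed to between 7883 and 8564 CPM in shControl sham and to between 2236 and 2597 CPM in shTRIM22 irradiated libraries. Of 14 listed genes 6 were tested, with 3 lower and 0 higher, where 21.7% and 22.3% of all genes were. Fibroblast markers summed to 6.46 to 9.32 and 12.0 to 14.1 CPM in these groups, and endothelial markers to 4.14 to 4.69 and 8.76 to 12.2 CPM. Of these lists 3 of 8 and 2 of 7 genes were tested, and 2 and 1 were called higher, where 22.3% of all genes were. Genes with few counts in shControl sham could pass the filter only through groups where they were higher, so these calls do not describe the lists. The part of these markers in the results was not tested. In bulk RNA such as this, fewer cells of a type and less RNA per cell cannot be told apart.

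One library stood apart, and it enters the sum but not the joint effect. Mitochondrially encoded genes made up 2.67% of the counts of shTRIM22 sham replicate 3, where replicates 1 and 2 had 9.12% and 11.4% and all other groups 10.8% to 14.4%. The common biological coefficient of variation, a measure of the spread that all tests share, was 9.70%, and 5.46% once this library was left out. Calls over all genes then rose to 52.7% for the joint effect and to 6.77% for joint minus sum, from 44.0% and 1.61%. Counts of list members given below without this library stand beside those larger shares.

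TRIM22 (ENSG00000132274, GRCh38 chr11:5689689-5737089, plus strand) did not differ between the compared groups by an amount the test called. It measured 2.83, 1.76 and 2.25 CPM in the shControl sham libraries and 2.47, 2.17 and 1.35 CPM in the shTRIM22 irradiated libraries, and these groups overlapped. In between, it was 18.5, 17.8 and 16.6 CPM in irradiated shControl cells and 0.326, 0.304 and 0.293 CPM in sham shTRIM22 cells. The joint effect was -0.19 ± 0.23 on the log2 scale (SE, edgeR adjusted p = 0.539) and the sum was 0.09. Joint minus sum was -0.28, with a 95% interval from -1.29 to 0.72. Without shTRIM22 irradiated replicate 3 the joint effect was 0.036. The doubly treated and the untreated libraries both lay below all irradiated control libraries and above all sham shTRIM22 libraries.

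The joint effect reached 7517 genes, 44.0% of those tested, of which 3812 rose (22.3%) and 3705 fell (21.7%). Changes of at least 2-fold were called for 896 genes that rose (5.24%) and 884 that fell (5.17%). Irradiation of shControl cells alone called 3107 genes (18.2%), 10.6% of all genes higher and 7.53% lower. Knockdown alone called 8116 (47.5%), 25.4% higher and 22.1% lower. The doubly treated libraries differed from irradiation alone in 6092 genes (35.6%), 17.6% higher and 18.0% lower, and from knockdown alone in 4702 (27.5%), 13.5% higher and 14.0% lower. The count for irradiation alone was 5260 without shTRIM22 sham replicate 3. Libraries of the compared groups did not overlap in 10031 genes, 58.7% of those tested.

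CPA4, a secreted carboxypeptidase (chr7:130293134-130324180), was among the protein-coding genes that rose most. It measured 9.94, 8.53 and 9.62 CPM in shControl sham and 170, 164 and 183 CPM in shTRIM22 irradiated libraries. The rise was 18.4-fold (4.20 ± 0.16 log2, SE, edgeR adjusted p = 3.06e-10), and the doubly treated libraries lay above both singly treated groups, which reached 33.7 and 116 CPM at most. OLR1, a scavenger receptor for oxidised lipoprotein, rose 10.3-fold and was also higher than in every other group. MFAP5, a protein of elastic microfibrils, rose 10.2-fold from 2.84 ± 0.118 to 28.9 ± 1.37 CPM, close to its 26.1 ± 1.80 CPM under knockdown alone. CD79A, ALPP, SLC6A12, STEAP4, PAG1, SH3TC2 and NECTIN4 completed the 10 largest rises, between 9.97-fold and 29.3-fold. CD79A, STEAP4 and NECTIN4 stayed below 10 CPM in all groups, and ALPP did too. In shControl sham CD79A had 2, 3 and 4 counts, ALPP 1, 2 and 2, and STEAP4 4, 6 and 5. The folds of CD79A, ALPP and STEAP4 rest on these few counts, and these genes reached a mean of 2 CPM through the shTRIM22 groups.

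Among the largest falls, CPLX2, a complexin that binds the vesicle fusion machinery (chr5:175796310-175884020), was by far the most abundant. It went from 2716, 2765 and 2700.0 CPM in shControl sham to 362, 363 and 419 CPM in shTRIM22 irradiated libraries. The fall was 7.14-fold (-2.84 ± 0.07 log2, SE, edgeR adjusted p = 8.92e-14), and every other group lay higher. FCGBP, a protein of airway and gut mucus, fell 7.86-fold from 90.2 ± 1.08 to 11.5 ± 1.44 CPM. SPDEF, a transcription factor of mucus-secreting epithelium, fell 7.69-fold, and the potassium channel gene KCNJ6 fell 7.50-fold. EGR2, APOH, KIF12, CACNA1G and FST fell 7.41-fold to 15.8-fold from levels under 10 CPM. CA9, a hypoxia-induced carbonic anhydrase, had 416 counts over the shControl sham libraries and 2 over the shTRIM22 irradiated libraries, which is 0.502% of its level with a 95% interval from 0.0606% to 1.82% that covers counting error only. CA9 overlaps ARHGEF39, and strandedness is not given in the sources used here, so reads of overlapping genes cannot be assigned with certainty. For CPLX2 knockdown alone gave -2.40 and irradiation alone -0.50 on the log2 scale.

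Most genes lay near the sum, within the precision of the data. Across all 17094 genes the median distance of the joint effect from the sum was 0.22 on the log2 scale, or 1.17-fold, where the median SE of that distance was 0.20. The point estimate lay within 1.5-fold of the sum for 14421 genes (84.4%), and the whole 95% interval did for 7322 (42.8%). Joint minus sum was called for 276 genes (1.61%), 89 above the sum (0.521%) and 187 below it (1.09%), and at least 2-fold for 12 (0.0702%) and 28 (0.164%) of these. The interval lay wholly beyond 1.5-fold for 103 genes (0.603%). Over all genes tested, the data could therefore for most not place the joint effect on the sum more tightly than 1.5-fold. Among the 13222 genes with a mean of at least 2 CPM, the whole interval lay within 1.5-fold for 7316 (55.3%).

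Among genes that rose jointly, departures lay mostly below the sum, and among genes that fell mostly above it. The 3812 genes that rose had a median joint effect of 0.57 against a median sum of 0.66, with 10 called above and 125 below. The 3705 genes that fell had medians of -0.62 and -0.67, with 59 above and 21 below. In the 896 genes that rose at least 2-fold, the medians were 1.48 and 1.67, with 1 above and 52 below. In the 884 that fell at least 2-fold they were -1.36 and -1.53, with 15 above and 5 below. Genes picked by their joint effect and set against a sum that shares the shControl sham libraries are not an independent sample, so these counts describe and do not test.

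The number of departures depended strongly on single libraries. Without shTRIM22 sham replicate 3, 1185 of 17500 genes were called (6.77%), 429 above and 756 below, and the interval lay within 1.5-fold for 50.6% of genes. Without shTRIM22 sham replicate 2, which leaves replicate 3 and 1 other library in that group, 302 lay above and 613 below. Leaving out any library of the other 3 groups gave 25 to 40 above and 86 to 102 below, and leaving out shTRIM22 sham replicate 1 gave 61 and 151. Below-sum calls outnumbered above-sum calls in each of these fits, but not with upper quartile scaling, which gave 147 above and 136 below. Leaving out mitochondrially encoded genes gave 115 and 146.

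**Figure D1:**
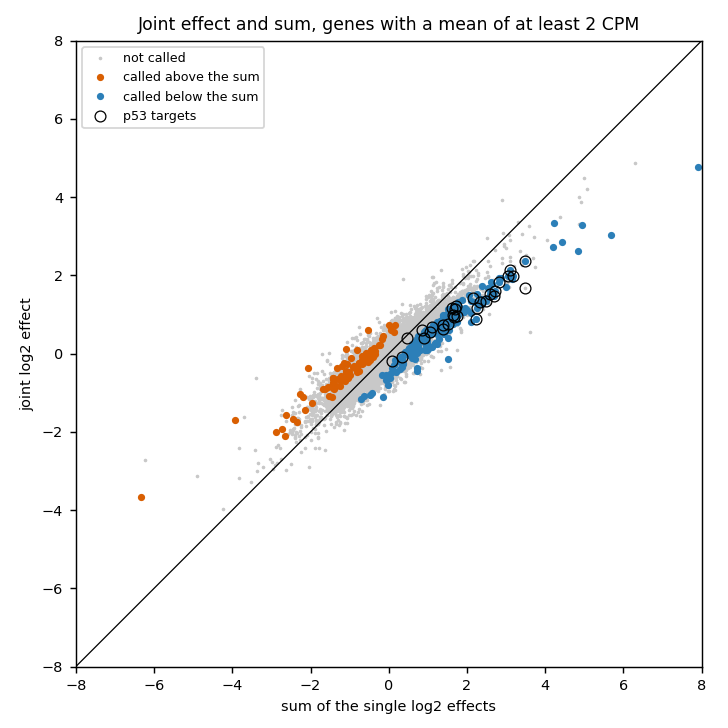
Joint log2 effect (vertical axis) against the sum of the single log2 effects (horizontal axis) for the 13221 genes with a mean of at least 2 CPM inside the axes; 1 gene, CA9, lies outside. The diagonal marks additivity, and the 30 p53 targets lie below it, 28 of them called higher.

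Nearly all p53 targets rose, and most lay below the sum. Of 30 listed genes, all tested, 28 rose in the joint comparison and 0 fell, where 22.3% of all genes rose. Their median joint effect was 1.16 on the log2 scale, next to 1.20 for irradiation alone, 0.84 for knockdown alone and 1.72 for the sum. The joint effect was called below the sum for 21 of the 30 and above it for none, against 1.09% and 0.521% of all genes, and the median of joint minus sum was -0.76, against -0.02 over all genes. The point estimate lay below the sum in all 30. Added up as CPM instead of log2, the joint level lay below the sum of the single changes in all 30 as well, and in 53.6% of all genes. Without shTRIM22 sham replicate 3 the number called below was 25, where 756 of all 17500 genes were.

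CDKN1A, which encodes p21 (chr6:36676460-36687339), shows the pattern at high counts. It measured 162, 164 and 160 CPM in shControl sham, 578, 603 and 617 CPM after irradiation, 355, 365 and 365 CPM after knockdown, and 635, 650 and 647 CPM after both. Each treatment raised it alone, and the doubly treated libraries lay just above the irradiated control ones, a difference that was not called (0.10 log2, edgeR adjusted p = 0.124). Jointly it rose 3.97-fold (1.99 ± 0.05 log2, SE, edgeR adjusted p = 1.82e-13), where the sum gives 8.22-fold. Joint minus sum was -1.05 ± 0.07 (SE, edgeR adjusted p = 1.22e-06), so the joint level was 48.2% of the level at the sum.

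MDM2, the ubiquitin ligase that degrades p53 (chr12:68808176-68850686), went a step further. Its level was 85.1, 85.9 and 85.5 CPM in shControl sham, 316, 317 and 296 CPM after irradiation, 163, 151 and 144 CPM after knockdown, and 245, 225 and 244 CPM after both. The doubly treated libraries lay below all irradiated control libraries (-0.38 log2, edgeR adjusted p = 0.00012) and above all knockdown libraries. Jointly it rose 2.78-fold, against 6.47-fold for the sum, and joint minus sum was -1.22 ± 0.09 (SE, edgeR adjusted p = 1.22e-06). Also called lower after both treatments than after irradiation alone were the listed genes DDB2, CCNG1, XPC, SUSD6 and TRIM22 itself. DDB2 is a damage sensor of nucleotide excision repair, and CCNG1 encodes cyclin G1. With MDM2 these made 6 of the 30, where 18.0% of all genes were called lower, so this count is near that share. TRIM22 among them is the target of the hairpin. In DDB2, levels of 43.2, 39.7 and 42.9 CPM in shControl sham rose to 102, 109 and 114 CPM after irradiation and to 58.9, 64.5 and 70.5 CPM after both, while knockdown alone gave 43.7, 45.2 and 37.1 CPM. The joint effect of DDB2 was 0.63 ± 0.09 (SE, edgeR adjusted p = 2.05e-05) and joint minus sum was -0.75.

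On the other side, 7 of the 30 were called higher after both treatments than after irradiation alone. This count too is near the share of all genes, 17.6%. They were ZMAT3, BAX, BBC3, TNFRSF10B, SESN1, SESN2 and AEN. SESN1, a sestrin that restrains mTORC1, had 6.23, 6.64 and 6.64 CPM in shControl sham, 22.6, 20.7 and 21.8 CPM after irradiation, 22.1, 19.6 and 23.4 CPM after knockdown, and 32.6, 33.0 and 34.7 CPM after both. The doubly treated libraries of SESN1 lay above all others, yet its 5.13-fold joint effect was under the 11.1-fold of the sum (joint minus sum -1.12 ± 0.14, SE, edgeR adjusted p = 0.000394). ZMAT3, an RNA-binding zinc-finger protein, likewise passed all other groups at 104, 94.2 and 91.2 CPM and reached 44.2% of the level at the sum. SESN1 and ZMAT3 were the only genes of the list called outside all other groups. GADD45A, a stress-induced regulator of growth arrest, was the 1 gene of the list called lower after both treatments than after knockdown alone. Its knockdown libraries read 66.2, 57.5 and 103 CPM, of which the last is replicate 3, and the doubly treated libraries read 48.3, 47.1 and 54.6 CPM.

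Among the death genes of the list, BAX, a pore-forming protein of the mitochondrial outer membrane, rose 2.33-fold with joint minus sum at -0.49. BBC3, the BH3-only protein PUMA, rose 1.93-fold with -0.71. FAS, a death receptor, rose 3.03-fold with -1.12, and TNFRSF10B, the TRAIL receptor DR5, rose 1.60-fold with -0.43. FAS overlaps ACTA2, and both lay below the sum. Among repair and nucleotide genes, RRM2B, a ribonucleotide reductase subunit, rose 2.22-fold with -0.55, and POLH, a translesion polymerase, rose 2.48-fold with -1.03. AEN, an exonuclease, had -1.08, BTG2, an antiproliferative factor, -1.16, PHLDA3, an AKT inhibitor, -1.06, and TP53INP1 -0.99. GDF15, a secreted stress cytokine, had -0.77, the phosphatase gene PPM1D -0.76, CCNG1 and SUSD6 -0.50 and -0.51, and SPATA18 -0.97. These are the joint minus sum values of genes called below the sum by edgeR. The calls for BAX, PHLDA3, PPM1D, SPATA18 and SUSD6 were lost in 6 to 15 of the alternative fits, leaving out single libraries among them.

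The 9 members with no such call were FDXR, XPC, RPS27L, TP53I3, EDA2R, SESN2, PLK3, TIGAR and TRIM22. FDXR, the ferredoxin reductase of mitochondria, had the lowest point estimate of the list at -1.81 ± 0.38 (SE, edgeR adjusted p = 0.052). Its knockdown libraries read 49.9, 44.5 and 104 CPM, so replicate 3 was again apart. SESN2 was at the sum within its error, -0.06 with a 95% interval from -0.36 to 0.24, and irradiation alone did not change it (-0.01, edgeR adjusted p = 0.970). XPC was the only other gene of the list besides TRIM22 that the joint comparison did not call, at 34.5 ± 0.881 CPM in shControl sham and 32.7 ± 1.48 CPM after both treatments.

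**Figure D2:**
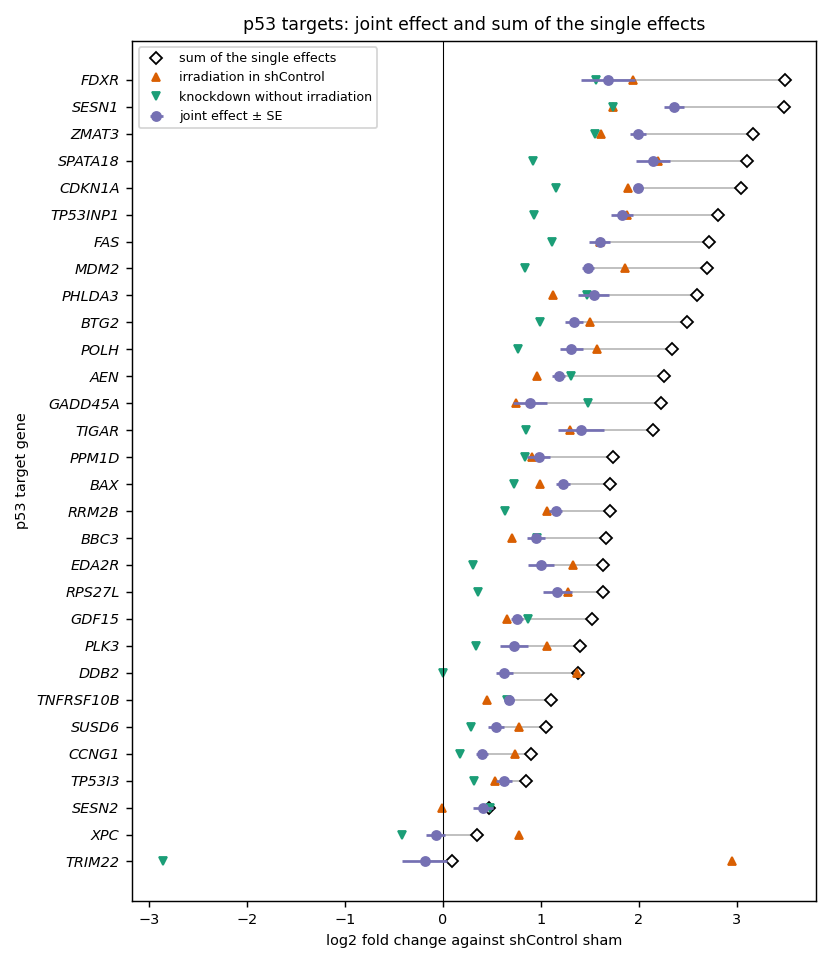
Joint log2 effect and sum of the single log2 effects for each of the 30 p53 targets, against shControl sham libraries. The joint effect lies to the left of the sum in every gene, with a median joint effect of 1.16 and a median sum of 1.72.

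Mitotic genes fell in nearly every case. Of 30 mitotic and G2/M genes, all tested, 29 fell and 0 rose, where 21.7% of all genes fell, and the exception was PRC1. The median joint effect was -1.13, next to -0.81 for irradiation alone, 0.18 for knockdown alone and -0.82 for the sum. None was called above or below the sum (2 below it without shTRIM22 sham replicate 3), and 23 of 30 point estimates lay below it. The median of joint minus sum was -0.33, against -0.02 over all genes. Against knockdown alone 28 were lower, where 14.0% of all genes were. Against irradiation alone 5 of the 30 were lower, where 18.0% of all genes were, so this count stands no higher than that share. The 5 were KIF23, CENPF, NUSAP1, TOP2A and NUF2. Only 3 of the 30 had a 95% interval of joint minus sum inside 1.5-fold, against 42.8% of all genes.

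TOP2A, the topoisomerase that untangles chromosomes before division (chr17:40388516-40417950), read 161, 163 and 124 CPM in shControl sham and 43.0, 42.1 and 44.3 CPM after both treatments. It read 83.1, 70.6 and 53.5 CPM after irradiation and 124, 114 and 144 CPM after knockdown, so the doubly treated libraries were the lowest of all. The joint effect was -1.79 ± 0.15 (SE, edgeR adjusted p = 6.39e-07), a 3.46-fold fall, and joint minus sum was -0.44 with a 95% interval from -0.89 to 0.00. KIF23, a kinesin of the midbody, fell 2.32-fold from 54.6, 52.7 and 44.6 CPM to 22.3, 20.5 and 22.6 CPM, and the single treatments left it at 36.2 ± 6.52 and 35.8 ± 1.94 CPM. KIF11, the motor that keeps spindle poles apart, fell 2.73-fold from 40.9 ± 6.42 to 15.0 ± 1.42 CPM and did not differ from irradiation alone (17.3 ± 2.61 CPM) by an amount the test called. NUF2, a kinetochore subunit, fell 3.42-fold from 11.7 ± 1.85 to 3.42 ± 0.426 CPM. TOP2A and KIF23 were the mitotic genes called outside all other groups.

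The promoters of KIF11, TOP2A and KIF23 are printed because they hold the elements through which DREAM is known to act, and these genes are among the 4 mitotic genes with the smallest p. They run from 250 bases before to 50 bases after the annotated start (RefSeq, GRCh38.p14), 5′ to 3′ on the strand of the gene. Capitals mark the CHR element, searched as TTTGAA or TTTAAA, and the CCAAT box, searched as CCAAT, on both strands. The windows are chr10:92592880-92593179 (plus strand) for KIF11, chr17:40417847-40418146 (minus strand) for TOP2A and chr15:69414099-69414398 (plus strand) for KIF23.
KIF11: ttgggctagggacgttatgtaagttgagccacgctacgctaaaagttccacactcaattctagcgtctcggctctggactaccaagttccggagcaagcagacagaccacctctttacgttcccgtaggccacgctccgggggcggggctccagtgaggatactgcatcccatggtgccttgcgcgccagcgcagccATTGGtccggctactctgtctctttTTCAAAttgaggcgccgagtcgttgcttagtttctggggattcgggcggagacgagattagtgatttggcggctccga
TOP2A: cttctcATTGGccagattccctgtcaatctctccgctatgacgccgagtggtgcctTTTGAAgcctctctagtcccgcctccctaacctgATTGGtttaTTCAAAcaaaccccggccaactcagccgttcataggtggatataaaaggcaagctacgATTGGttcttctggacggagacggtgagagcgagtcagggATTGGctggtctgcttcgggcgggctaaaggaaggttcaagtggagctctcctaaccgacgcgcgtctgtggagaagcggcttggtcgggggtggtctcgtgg
KIF23: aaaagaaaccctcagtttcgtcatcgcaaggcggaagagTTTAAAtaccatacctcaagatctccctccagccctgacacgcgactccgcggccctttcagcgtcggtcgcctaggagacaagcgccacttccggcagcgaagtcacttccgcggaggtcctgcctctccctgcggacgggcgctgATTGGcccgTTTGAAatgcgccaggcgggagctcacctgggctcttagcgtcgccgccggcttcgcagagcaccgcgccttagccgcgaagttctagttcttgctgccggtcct
In KIF11 a CCAAT box started at position -53 from the annotated start and a CHR at -28. KIF23 held a CCAAT box at -64 and CHR matches at -55 and -211, and TOP2A held 4 CCAAT boxes, at -244, -160, -93 and -53, and CHR matches at -194 and -151. TTTGAA reads TTCAAA and CCAAT reads ATTGG where the match is on the opposite strand. NUF2, the other of the 4 genes, is not printed. Its window held no CCAAT box and 1 CHR match, at position 16, after the annotated start.

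Of the 30 mitotic genes 24 matched a RefSeq promoter, with 27 windows, and 23 of these windows (85.2%) held a CHR match. The share was 17.4% of the 15896 windows of protein-coding genes tested and 24.0% of all 35116 windows. CCAAT was present in 77.8% of the mitotic windows, against 34.1% of the windows of protein-coding genes tested. In DNA replication genes CHR was in 1 of 35 windows (2.86%) and CCAAT in 60.0%. In p53 targets CHR was in 8 of 36 windows (22.2%). A match of letters is no evidence of binding.

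**Figure D3:**
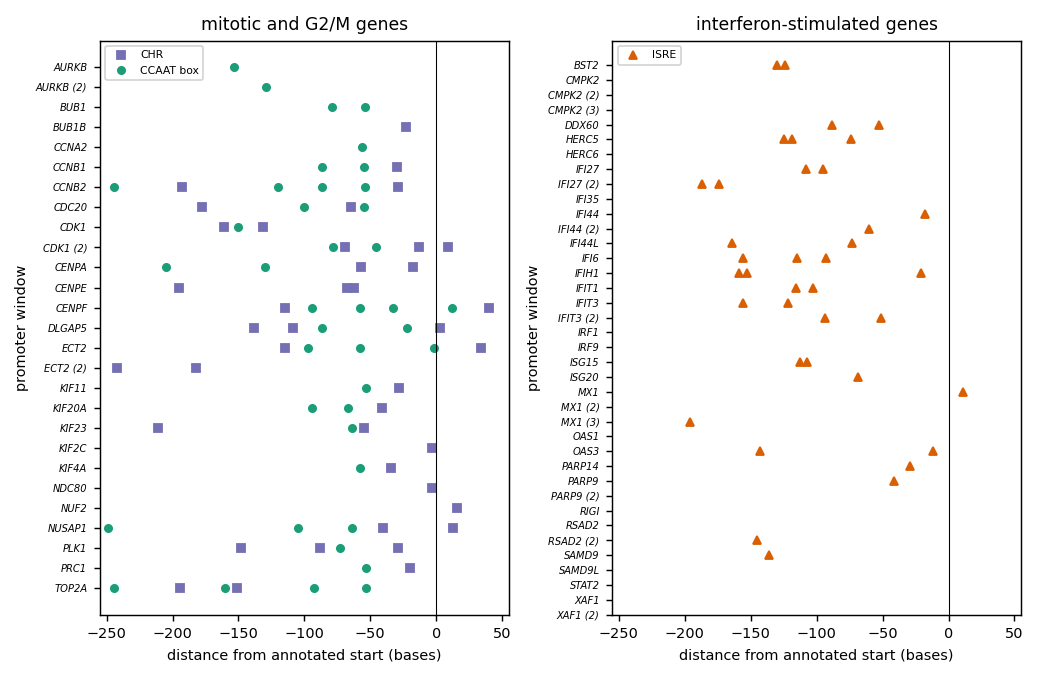
Position of each motif match, in bases from the annotated start, in the RefSeq promoter windows of mitotic genes (CHR and CCAAT box) and interferon-stimulated genes (ISRE). In the mitotic windows 26 of 41 CHR matches and 30 of 41 CCAAT matches lie from 100 bases before to 50 bases after the start, and 16 of 38 ISRE matches do in the interferon-stimulated windows.

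DNA replication genes had a smaller median joint effect than mitotic genes, and their single effects pointed opposite ways. Of 30 genes tested 10 fell and 0 rose jointly, where 21.7% and 22.3% of all genes did, and 1 rose without shTRIM22 sham replicate 3. Irradiation alone lowered 19 and raised 1 (7.53% and 10.6% of all genes), and knockdown alone raised 23 and lowered 0 (25.4% and 22.1%). The median joint effect was -0.30, the median irradiation effect -0.61, the median knockdown effect 0.56 and the median sum -0.04. Against knockdown alone 27 of 30 were lower, where 14.0% of all genes were. Against irradiation alone 9 were higher and 2 lower, where 17.6% and 18.0% of all genes were. MCM4, CDT1 and PCNA were called below the sum, and 6 genes were without shTRIM22 sham replicate 3. CDT1, which loads the replicative helicase onto origins (chr16:88803213-88809258), read 22.5, 22.4 and 20.5 CPM in shControl sham, 17.8, 15.2 and 10.8 CPM after irradiation, 27.9, 26.9 and 34.2 CPM after knockdown, and 9.36, 8.98 and 12.0 CPM after both. Its joint effect was -1.11 ± 0.16 (SE, edgeR adjusted p = 3.64e-05) where the sum was -0.14, and joint minus sum was -0.97 (edgeR adjusted p = 0.0408), a call lost in 9 alternative fits. MCM5 and MCM7, subunits of that helicase, fell 1.52-fold and 1.59-fold, and GINS1, a subunit of its activator, fell 1.37-fold. MCM7 overlaps AP4M1.

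Genes of deoxynucleotide supply split. Of 10 tested, 4 rose and 2 fell jointly, where 22.3% and 21.7% of all genes did, and 4 fell without shTRIM22 sham replicate 3. SAMHD1, which breaks down deoxynucleotides and restricts viruses, rose 2.42-fold from 12.2 ± 1.34 to 29.4 ± 2.44 CPM, at 97.7% of the level at the sum. RRM2, a subunit of ribonucleotide reductase, fell 1.93-fold. TYMS, thymidylate synthase, rose 1.42-fold and lay below the sum (-0.72, edgeR adjusted p = 0.0482), a call lost in 14 alternative fits. TYMS overlaps ENOSF1.

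Of 24 Fanconi and homologous recombination genes tested, 12 fell and 0 rose jointly (1 rose without shTRIM22 sham replicate 3; 21.7% and 22.3% of all genes), with a median of -0.35 against -0.55 for irradiation alone and 0.50 for knockdown alone. RAD51AP1, a homologous recombination factor, fell 2.35-fold, the helicase gene BLM 1.92-fold, BRCA1 1.88-fold and FANCG 1.57-fold. Of 16 nuclear lamina and chromatin genes, 12 fell and 1 rose, against the same shares of all genes, with a median of -0.51 against -0.62 for irradiation alone and 0.15 for knockdown alone. HMGB2, a chromatin protein that declines as cells stop cycling, read 30.9 ± 0.262 CPM in shControl sham, 15.0 ± 0.477 CPM after irradiation, 38.3 ± 3.79 CPM after knockdown and 16.4 ± 1.62 CPM after both. SMC4, a condensin subunit, fell 1.80-fold, LBR, the lamin B receptor, 1.42-fold and HMGB1 1.66-fold. SMC4 overlaps TRIM59 and IFT80.

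**Figure D4:**
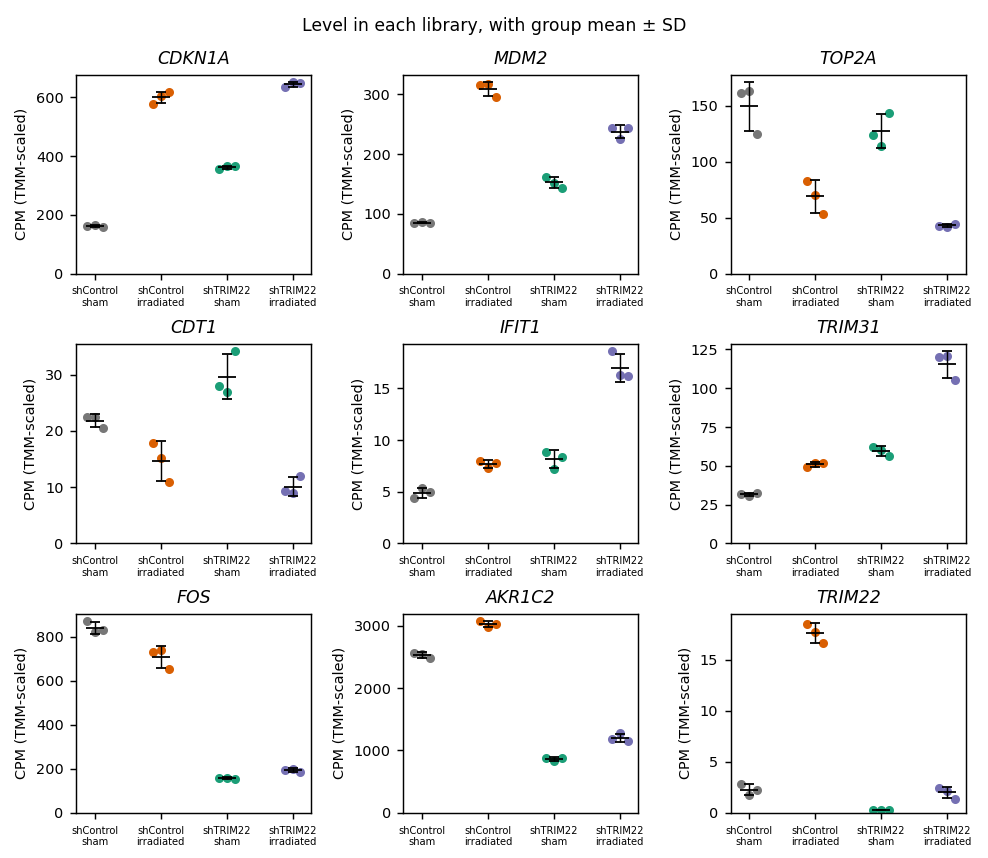
Levels in CPM (vertical axes) of CDKN1A, MDM2, TOP2A, CDT1, IFIT1, TRIM31, FOS, AKR1C2 and TRIM22 in each library of the 4 groups, with 1 point per library, a dash at the group mean and error bars of 1 SD. TRIM31 and IFIT1 are highest and TOP2A lowest in the doubly treated group, while TRIM22 there overlaps shControl sham, with 1 library below it.

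Interferon-stimulated genes rose in the joint comparison without a called departure from the sum (1 above it without shTRIM22 sham replicate 3). Of 31 tested of 35 listed, 18 rose and 1, ISG20, fell, where 22.3% of all genes rose and 21.7% fell. They had a median of 0.45 against 0.42 for irradiation alone, -0.07 for knockdown alone and 0.32 for the sum. Against knockdown alone 17 were higher and 0 lower (13.5% and 14.0% of all genes), and against irradiation alone 6 were higher and 1 lower, where 17.6% and 18.0% of all genes were. IFIT1, which binds viral RNA lacking cap methylation (chr10:89392546-89406486), read 4.40, 5.33 and 4.95 CPM in shControl sham, 7.996, 7.29 and 7.75 CPM after irradiation, 8.86, 7.23 and 8.38 CPM after knockdown, and 18.6, 16.3 and 16.2 CPM after both. The doubly treated libraries lay above all others, by 3.47-fold over shControl sham (1.80 ± 0.13 log2, SE, edgeR adjusted p = 1.31e-08), and joint minus sum was 0.41 (edgeR adjusted p = 0.271). STAT2, a subunit of the ISRE-binding complex, rose 1.88-fold from 43.2 ± 3.42 to 81.3 ± 3.69 CPM, above all other groups and at 99.1% of the level at the sum. IFI27 rose 3.92-fold and IFIT3 2.40-fold, both at levels under 20 CPM.

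The promoters of IFIT1 and IFI27 are shown as the windows of the genes with the largest named rises in this list (RefSeq, GRCh38.p14, chr10:89392373-89392672 and chr14:94110486-94110785, both plus strand). Capitals mark the ISRE core, searched as GAAANNGAAA on both strands, so that a match on the opposite strand starts with TTTC.
IFIT1: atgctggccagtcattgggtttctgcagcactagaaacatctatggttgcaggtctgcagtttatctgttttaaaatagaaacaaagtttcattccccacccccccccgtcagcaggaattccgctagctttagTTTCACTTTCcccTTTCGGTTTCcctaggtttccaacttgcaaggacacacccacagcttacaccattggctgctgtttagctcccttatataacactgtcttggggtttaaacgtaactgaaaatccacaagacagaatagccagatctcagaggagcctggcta
IFI27: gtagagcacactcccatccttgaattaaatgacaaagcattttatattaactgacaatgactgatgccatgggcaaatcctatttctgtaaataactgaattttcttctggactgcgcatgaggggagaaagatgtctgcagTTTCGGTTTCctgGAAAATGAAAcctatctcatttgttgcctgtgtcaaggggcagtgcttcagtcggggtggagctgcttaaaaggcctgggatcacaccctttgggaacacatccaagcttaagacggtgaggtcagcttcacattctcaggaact
IFIT1 held matches at positions -116 and -103 from the annotated start, and IFI27 at -108 and -95. Of the 35 listed genes 28 matched a RefSeq promoter, and 22 of their 38 windows (57.9%) held a match, against 2.89% of the windows of protein-coding genes tested and 0 of the 27 mitotic windows. Many genes enter such lists because they hold this element, so the share describes the list.

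The single effects on NF-kB targets also pointed opposite ways. Irradiation alone raised 14 of 25 and lowered 1, knockdown alone raised 3 and lowered 14, and 5 were higher and 3 lower in the joint comparison, with medians of 0.35, -0.24 and -0.03. Of all genes 10.6% and 7.53%, 25.4% and 22.1%, and 22.3% and 21.7% were called higher and lower in these comparisons, so the joint count of NF-kB targets stands no higher than that of all genes. Lower calls were 7 without shTRIM22 sham replicate 3. TNFAIP3, the deubiquitinase A20 that limits NF-kB, read 62.9 ± 2.80 CPM in shControl sham, 80.9 ± 1.58 CPM after irradiation, 30.7 ± 0.597 CPM after knockdown and 43.3 ± 1.58 CPM after both, a joint fall of 1.45-fold. By contrast, IL6 and CCL20, a cytokine and a chemokine, rose above every other group. IL6 went from 2.39, 3.26 and 2.19 CPM to 9.49, 7.65 and 9.39 CPM, 3.38-fold (1.76 ± 0.19 log2, SE, edgeR adjusted p = 1.03e-06), and CCL20 went from 14.009 ± 0.344 to 35.6 ± 0.506 CPM, 2.54-fold.

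Secreted factors of senescent cells were mixed. Of 25 tested of 28 listed, 10 rose and 5 fell jointly, where 22.3% and 21.7% of all genes did, with a median of 0.31 against 0.65 for irradiation alone and 0.55 for the sum. PLAT, tissue plasminogen activator, read 2.64, 1.94 and 2.31 CPM in shControl sham and 9.75, 9.04 and 8.17 CPM after both treatments, while irradiation alone gave 4.00 ± 0.479 and knockdown alone 2.85 ± 0.489 CPM. Its joint effect was 3.90-fold, and joint minus sum was 0.85 with a 95% interval from 0.29 to 1.41 that the adjusted test did not call (edgeR adjusted p = 0.115). TIMP2, an inhibitor of metalloproteinases, rose 3.33-fold to 417 ± 11.3 CPM, close to the 390 ± 39.2 CPM of knockdown alone, and lay below the sum at -0.64.

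MHC class I presentation genes rose in 8 and fell in 3 of 20 cases (22.3% and 21.7% of all genes). CALR, a chaperone of the loading complex, rose 1.98-fold from 343 ± 9.93 to 680 ± 47.7 CPM, NLRC5, the activator of these genes, 1.99-fold and TAPBP, tapasin, 1.44-fold. B2M, the invariant light chain, rose 1.29-fold from 172 ± 5.67 to 222 ± 2.08 CPM. It lay below both the sum (-0.39, edgeR adjusted p = 0.0123) and the 253 ± 7.99 CPM of irradiation alone.

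Some genes were called outside all other groups, which means that the doubly treated libraries differed in 1 direction from shControl sham, from irradiation alone and from knockdown alone, with the largest of the 3 p-values adjusted over all genes. There were 149 such genes on the high side (0.872%) and 77 on the low side (0.450%). Without shTRIM22 sham replicate 3 there were 413 and 252. Without 1 of the other libraries there were 50 to 165 and 21 to 95, with the lowest counts when shTRIM22 irradiated replicate 1 was left out.

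TRIM31, another RING-type ubiquitin ligase of the tripartite motif family (chr6:30102897-30113106), had the smallest p on the high side. It read 31.8, 30.3 and 32.5 CPM in shControl sham, 49.2, 51.6 and 52.1 CPM after irradiation, 62.3, 60.4 and 56.2 CPM after knockdown, and 120, 121 and 106 CPM after both. No group overlapped another in these values. Its rise of 3.66-fold (1.87 ± 0.07 log2, SE, edgeR adjusted p = 2.34e-11) stood beside 3.05-fold for the sum, and joint minus sum was 0.26 (edgeR adjusted p = 0.205). FAM102A rose 2.65-fold to 132 ± 2.22 CPM and STRIP2, a scaffold protein of a phosphatase complex, 3.15-fold to 55.4 ± 0.405 CPM, at 94.7% and 110% of the level at the sum. LOXL2, a collagen-crosslinking oxidase, rose 2.08-fold to 375 ± 15.4 CPM, and it overlaps ENTPD4.

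On the low side PARP1, the enzyme that marks DNA breaks with poly-ADP-ribose, fell 1.70-fold. It read 160, 159 and 154 CPM in shControl sham, 129, 131 and 123 CPM after irradiation, 122, 119 and 128 CPM after knockdown, and 91.8, 96.0 and 89.9 CPM after both, at 93.1% of the level at the sum. IRS2, an adaptor of the insulin receptor, fell 2.64-fold from 200, 197 and 186 CPM to 76.0, 74.9 and 69.7 CPM, at 97.1% of the level at the sum. RBM39, a splicing factor, fell 1.63-fold, BCAM, a laminin receptor, 1.83-fold, and CTDSP2, a phosphatase, 2.30-fold. None of these 5 genes was called away from the sum.

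Sterol synthesis and uptake genes rose in 17 and fell in 0 of 24 cases (1 fell without shTRIM22 sham replicate 3; 22.3% and 21.7% of all genes), with a median of 0.50 against 0.24 for irradiation alone, 0.46 for knockdown alone and 0.64 for the sum. MSMO1, a sterol oxidase, rose 2.74-fold from 77.0 ± 2.01 to 211 ± 22.9 CPM and SQLE, squalene epoxidase, 1.87-fold. FDPS and NSDHL were above all other groups. Of 12 fatty acid synthesis genes 6 rose and 1 fell, beside these shares. FASN, fatty acid synthase, rose 1.61-fold to 998 ± 44.4 CPM and ACACA, acetyl-CoA carboxylase, 1.18-fold, while SREBF1, which encodes a transcription factor of these enzymes, fell 1.51-fold to 311 ± 12.3 CPM.

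Autophagy and lysosome genes rose in 20 and fell in 3 of 28 cases, against 22.3% and 21.7% of all genes, with a median of 0.51 against 0.15 and 0.25 for the single effects and 0.52 for the sum. The number that fell was 6 without shTRIM22 sham replicate 3. NPC1, which exports cholesterol from lysosomes, read 122, 119 and 112 CPM in shControl sham, 163, 158 and 156 CPM after irradiation, 247, 237 and 210 CPM after knockdown, and 305, 294 and 321 CPM after both. It rose 2.60-fold, to 98.3% of the level at the sum, and joint minus sum was -0.03 with a 95% interval from -0.22 to 0.17, which is inside 1.5-fold. CTSD, a lysosomal protease, rose 1.65-fold, ATG2A, a lipid transfer protein of autophagosomes, 2.00-fold and GABARAPL1, an autophagosome membrane protein, 1.64-fold. In this list 22 of 28 genes had an interval inside 1.5-fold of the sum, against 42.8% of all genes. BCL2 family and caspase genes rose in 13 and fell in 2 of 26 cases, beside the same shares, with CASP2 1.94-fold higher and MCL1, a survival factor, 1.78-fold lower.

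**Figure D5:**
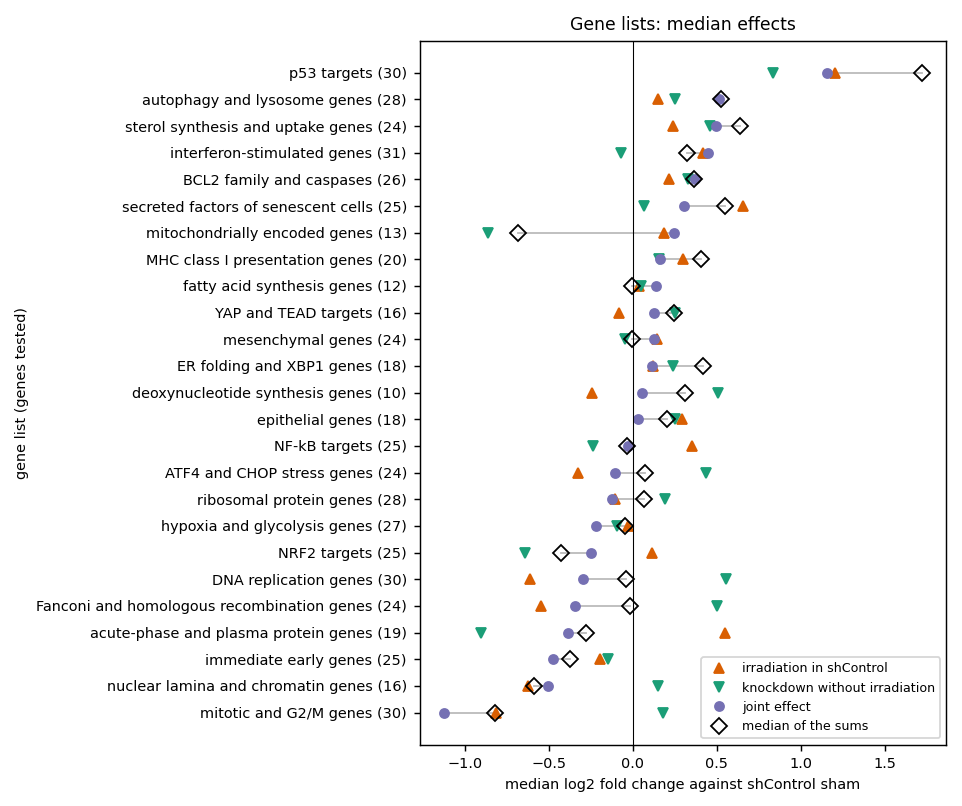
Median log2 effect of each gene list for the joint comparison, the single effects and their sum, over the genes of the list that were tested. The joint median lies below the sum for p53 targets (1.16 against 1.72) and close to it for autophagy and lysosome genes (0.51 against 0.52).

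NRF2 targets fell in 13 and rose in 5 of 25 cases, where 21.7% and 22.3% of all genes did, with a median of -0.25. A549 carries a mutant KEAP1, so NRF2 is active in it without stress. Knockdown alone lowered 18 and raised 5, with a median of -0.64, and irradiation alone raised 9 and lowered 1, with a median of 0.11. Of all genes, knockdown alone lowered 22.1% and raised 25.4%, and irradiation alone raised 10.6% and lowered 7.53%. AKR1C2, an aldo-keto reductase (chr10:4987400-5018031), read 2565, 2551 and 2475 CPM in shControl sham, 3082, 2988 and 3032 CPM after irradiation, 881, 829 and 880 CPM after knockdown, and 1177, 1277 and 1150.0 CPM after both. The joint fall was 2.11-fold (-1.07 ± 0.06 log2, SE, edgeR adjusted p = 6.52e-10), and irradiated libraries read higher than sham libraries of the same hairpin. AKR1C2 has close paralogs among which reads may be split. AKR1B10 fell 2.27-fold and SLC7A11, the cystine importer, 2.33-fold. ABCC3, an efflux pump, fell 2.17-fold from 1257 ± 50.4 to 580 ± 8.35 CPM and lay above the sum by 0.33 (edgeR adjusted p = 0.0451), a call lost in 12 alternative fits. In this list 21 of 25 genes had an interval inside 1.5-fold of the sum, against 42.8% of all genes.

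ATF4 and CHOP stress genes rose in 5 and fell in 11 of 24 cases (22.3% and 21.7% of all genes). SHMT2, a mitochondrial enzyme of serine metabolism, read 123, 130 and 122 CPM in shControl sham and 22.6, 23.7 and 34.5 CPM after both treatments, a 4.64-fold fall. Irradiation alone left it at 127 ± 5.52 and knockdown alone at 25.5 ± 1.64 CPM. TRIB3, a pseudokinase induced by stress, went the other way in its single effects, since irradiation alone lowered it to 169 ± 6.34 CPM from 336 ± 32.2 CPM and knockdown alone left it at 326 ± 31.9 CPM, and both together gave 202 ± 27.8 CPM. ASNS, asparagine synthetase, fell 2.58-fold to 3.98 ± 0.851 CPM. Of 18 ER folding and XBP1 genes 7 rose and 5 fell, beside these shares. CANX, a chaperone of glycoprotein folding, fell 2.43-fold from 1582 ± 42.2 to 650.0 ± 13.0 CPM, DNAJC3 1.71-fold, and XBP1, the transcription factor, 1.67-fold to 140 ± 3.42 CPM, below all other groups. Without shTRIM22 sham replicate 3, 7 of these 18 were called below the sum, against 0 with it. Of all genes 756 of 17500 were called below the sum without that library, against 187 of 17094 with it.

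Hypoxia and glycolysis genes rose in 4 and fell in 14 of 27 cases, where 22.3% and 21.7% of all genes did, and 7 rose without shTRIM22 sham replicate 3. The glucose transporter SLC2A3 read 284, 279 and 221 CPM in shControl sham, 121, 120 and 110 CPM after irradiation, 1022, 1029 and 1018 CPM after knockdown, and 454, 446 and 516 CPM after both. Opposite single effects of -1.16 and 1.97 met in a joint effect of 0.85 ± 0.08 (SE, edgeR adjusted p = 4.95e-07), 0.05 from the sum. SLC2A1, its relative, rose 2.13-fold, and GPI, a glycolytic isomerase, fell 1.42-fold.

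Epithelial and mesenchymal genes did not move as blocks. Of 18 epithelial genes tested of 21 listed, 6 rose and 5 fell, against 22.3% and 21.7% of all genes. CDH1, E-cadherin, fell 2.96-fold from 227, 218 and 201 CPM to 74.4, 73.6 and 70.5 CPM, while irradiation alone raised it to 287 ± 9.83 CPM and knockdown alone left 44.4 ± 3.97 CPM. CLDN2 and TJP3, proteins of tight junctions, fell 3.01-fold and 2.47-fold. The keratins KRT8 and KRT18, which overlap each other in the annotation and have processed copies, rose 1.69-fold and 1.71-fold and lay below the sum at -0.50 and -0.59, calls lost in 10 alternative fits each. Of 24 mesenchymal genes tested of 25 listed, 7 rose and 8 fell, beside these shares. FN1, fibronectin, fell 3.35-fold from 546, 551 and 514 CPM to 168, 162 and 152 CPM and lay above the sum by 0.60 (edgeR adjusted p = 0.0321), a call lost in 7 alternative fits. SPARC, a matrix glycoprotein, rose 12.5-fold at levels under 5 CPM. ACTA2, smooth muscle actin, rose 3.73-fold from 5.91, 5.27 and 5.40 CPM to 20.5, 20.5 and 20.9 CPM, next to 22.9 ± 1.19 CPM after irradiation alone, and lay below the sum at -1.26 (edgeR adjusted p = 0.000618).

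YAP and TEAD targets rose in 6 and fell in 6 of 16 cases, where 22.3% and 21.7% of all genes did. AXL, a receptor kinase, fell 2.95-fold, WWTR1, the YAP relative TAZ, 1.71-fold, and the matricellular genes CTGF and CYR61 fell 1.98-fold and 1.80-fold. Immediate early genes fell in 16 and rose in 4 of 25 cases, beside the same shares, with a median of -0.47 against -0.20 for irradiation alone, -0.15 for knockdown alone and -0.37 for the sum. FOS, an AP-1 subunit (chr14:75278774-75282230), read 869, 819 and 829 CPM in shControl sham, 733, 742 and 652 CPM after irradiation, 157, 160 and 153 CPM after knockdown, and 196, 201 and 186 CPM after both. Irradiation came with a lower level in shControl cells and with a higher one in shTRIM22 cells (0.31 log2 against knockdown alone, edgeR adjusted p = 0.0015). The joint fall was 4.32-fold, and FOS lay above the sum by 0.55 ± 0.09 (SE, edgeR adjusted p = 0.00331). FOSB, its relative, went from 424, 419 and 367 CPM to 104, 105 and 94.0 CPM, a 4.00-fold fall, and lay above the sum by 0.88 ± 0.13 (SE, edgeR adjusted p = 0.00216). JUNB fell 2.53-fold with joint minus sum at 0.00, and DUSP5, a nuclear phosphatase of ERK, rose 2.37-fold.

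Acute-phase and plasma protein genes fell in 9 and rose in 4 of 19 cases tested of 29 listed (21.7% and 22.3% of all genes). Irradiation alone raised 12 and lowered 0, and knockdown alone raised 2 and lowered 13, with medians of 0.55 and -0.90 and a joint median of -0.39. Of all genes, irradiation alone raised 10.6% and lowered 7.53%, and knockdown alone raised 25.4% and lowered 22.1%. FGB, the fibrinogen beta chain, fell 2.17-fold from 343 ± 3.70 to 158 ± 2.19 CPM, where irradiation alone gave 422 ± 31.0 and knockdown alone 120 ± 3.89 CPM. The serum amyloid genes SAA1 and SAA2 were among the rises and lay far below the sum. SAA1 (chr11:18266174-18269977) read 2.26, 1.69 and 1.74 CPM in shControl sham, 7.01, 5.34 and 4.67 CPM after irradiation, 16.7, 16.9 and 21.5 CPM after knockdown, and 12.3, 12.2 and 11.003 CPM after both. Its joint effect of 6.21-fold was 21.7% of the level at the sum (joint minus sum -2.20 ± 0.25, SE, edgeR adjusted p = 0.000181). SAA2 rose 8.18-fold and reached 16.0% of that level (-2.65 ± 0.29, SE, edgeR adjusted p = 0.000147). SAA1 and SAA2 are near-identical, so reads may be split between them.

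Among called protein-coding genes that average at least 2 CPM, the others furthest below the sum were ALPP, PXDN, FLG and MSLN. ALPP, placental alkaline phosphatase (chr2:232378534-232382889), read 0.0629, 0.125 and 0.113 CPM in shControl sham, 0.566, 0.456 and 0.236 CPM after irradiation, 6.80, 6.51 and 6.85 CPM after knockdown, and 3.05, 3.13 and 2.70 CPM after both. Both treatments together gave less than knockdown alone, and joint minus sum was -3.13 ± 0.55 (SE, edgeR adjusted p = 0.00714). ALPP had 1, 2 and 2 counts in shControl sham and 8, 7 and 4 after irradiation, so the size of its sum rests on few counts. PXDN, a peroxidase of basement membranes, was raised by knockdown alone to 4.61 ± 0.236 CPM from 1.77 ± 0.479 CPM and stood at 1.60 ± 0.348 CPM after both. FLG, filaggrin of the skin barrier, rose 9.72-fold to 31.6% of the level at the sum, and it overlaps its antisense gene FLG-AS1. MSLN, the surface protein mesothelin, rose 6.65-fold to 36.2% of that level. The calls of PXDN and FLG were lost in 6 alternative fits each and that of MSLN in 3.

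By the same limits the called genes furthest above the sum were APOH, PLEKHG6, MAP1A, ADGRE1, MAP2 and WNT3, and in each of them knockdown alone had lowered the level. WNT3, a secreted ligand of the Wnt pathway (chr17:46762506-46833154), read 25.3, 26.0 and 24.7 CPM in shControl sham, 22.4, 20.4 and 23.8 CPM after irradiation, 12.2, 12.5 and 10.1 CPM after knockdown, and 20.5, 19.5 and 19.1 CPM after both. The joint effect was only -0.36 where the sum was -1.31, and joint minus sum was 0.95 ± 0.14 (SE, edgeR adjusted p = 0.00289). PLEKHG6, an exchange factor of small GTPases, read 15.1, 14.5 and 12.4 CPM in shControl sham, 6.31, 5.47 and 3.46 CPM after knockdown, and 9.29, 10.7 and 12.2 CPM after both, and its joint effect was not called (-0.38, edgeR adjusted p = 0.0794). ADGRE1, an adhesion G-protein receptor, rose 1.53-fold jointly although knockdown alone lowered it. MAP1A and MAP2, microtubule-associated proteins, fell 2.06-fold and 2.99-fold and lay 1.23 and 1.04 above the sum. APOH had 3 counts over the knockdown libraries against 309 over shControl sham, so its 2.66 above the sum rests on few counts. On the CPM scale APOH lay 0.764 CPM below the sum of its changes, which turns the direction. The calls of APOH, MAP1A, ADGRE1 and MAP2 were lost in 11, 8, 6 and 1 of the alternative fits.

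The remaining lists gave little. Ribosomal protein genes fell in 9 and rose in 1 of 28 cases, where 21.7% and 22.3% of all genes did, with a median of -0.12 (RPL3 by 1.27-fold, RPL10 by 1.27-fold and RPL19 by 1.34-fold), and 15 fell and 2 rose without shTRIM22 sham replicate 3. None of the 13 mitochondrially encoded genes was called in the joint comparison, where their median was 0.24, or away from the sum. Without shTRIM22 sham replicate 3, 3 of them were called higher jointly and 1 above the sum. Their median joint minus sum was 0.94 with shTRIM22 sham replicate 3, in which they took few counts, and 0.45 without it. Of 5 TRIM genes tested next to TRIM22 on chromosome 11, 1 rose and 0 fell, against 22.3% and 21.7% of all genes. Without shTRIM22 sham replicate 3, 2 of them rose. The A549 line genes rose in 2 and fell in 2 of 8 cases, beside the same shares. ALDH1A1, an aldehyde dehydrogenase abundant in the line, fell 1.14-fold from 5808 ± 77.9 to 5092 ± 55.8 CPM, a call lost in 10 alternative fits. Of the blood markers 1 was tested and not called, and of 4 kidney and cervix line genes tested 1 fell, where 21.7% of all genes did.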

How the data were processed

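Poly(A) RNA of 12 A549 libraries, 3 in each of 4 groups, was sequenced, and the authors deposited unnormalized whole-number read counts for 58735 genes in 1 table. The submitters' processing notes list DESeq2 1.20.0 and the build hg38, with no role for either. Which aligner and counter were used, and whether strand was kept, is not given in the sources used here. All gene identifiers and coordinates equal those of GENCODE release 29. The table holds 0 per-sample columns beyond the 12 libraries.

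Tests of these counts used edgeR 4.0.16 (R 4.3.3): filterByExpr on group with a minimum count of 10, TMM scaling, 1 mean per group over 12 libraries, robust dispersions, and quasi-likelihood F-tests with Benjamini-Hochberg adjustment over 17094 genes. Joint minus sum is the contrast of shTRIM22 irradiated minus shControl irradiated minus shTRIM22 sham plus shControl sham. Levels are TMM-scaled CPM. Total counts of 14468386 to 17872154 limit genes of few counts, and intervals on such counts are exact and cover counting error only. Where all libraries of a group were at 0, no fold was given.

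Named genes are TRIM22; the 10 largest joint rises and the 10 largest falls among called protein-coding genes that average 2 CPM or more and whose groups do not overlap; the 6 furthest above and the 6 furthest below the sum; the 5 of smallest p outside all other groups in each direction; and up to 4 members of smallest p of each list with at least 4 called. All 30 p53 targets are given, and members outside the rule (such as PRC1 or FDPS) were chosen after their values were seen. A few that the rule picks are not reported here. The 32 lists, the members and the comparison were chosen with earlier results of these data known, so they support nothing independently. Promoter windows are those of RefSeq, GRCh38.p14.

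Tested on simulated data for 17094 genes, recovery of joint changes was 64% at 1.5-fold, 82% at 2-fold, 98% at 3-fold and 100% at 4-fold (11 of 183 calls false). Recovery of departures from the sum was 46%, 64%, 92% and 96% at these sizes (15 of 164 calls false). The changed genes, 50 of each size, averaged at least 2 CPM, and only the doubly treated group was shifted. No single effects were simulated, so the rates do not cover genes of fewer counts or with single effects. Alternatives were other scalings, no filter on low counts, DESeq2 1.42.0, no robust dispersion, the replicate block, the compared groups only, no mitochondrially encoded genes, sums on the CPM scale and leaving out each library. No set of genes was tested as a set.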

Additional observations from a re-analysis of the deposited data

Results flagged for a closer look

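The genes here are those named above whose irradiation effect differed between shControl and shTRIM22 cells, which is the same test as joint minus sum (edgeR adjusted p below 0.05). All values are joint minus sum on the log2 scale. Below the sum among p53 targets lay CDKN1A at -1.05, MDM2 at -1.22, SESN1 at -1.12, ZMAT3 at -1.18, BAX at -0.49, TNFRSF10B at -0.43, PHLDA3 at -1.06 and RRM2B at -0.55. CCNG1 lay at -0.50, AEN at -1.08, DDB2 at -0.75, GADD45A at -1.34, TP53INP1 at -0.99, SUSD6 at -0.51, BBC3 at -0.71 and FAS at -1.12. BTG2 lay at -1.16, PPM1D at -0.76, POLH at -1.03, SPATA18 at -0.97 and GDF15 at -0.77.

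Below the sum elsewhere lay ALPP at -3.13, SAA2 at -2.65, SAA1 at -2.20, PXDN at -1.66, FLG at -1.66, MSLN at -1.47 and MFAP5 at -0.88. CDT1 lay at -0.97, TYMS at -0.72, TIMP2 at -0.64, B2M at -0.39, KRT8 at -0.50, KRT18 at -0.59 and ACTA2 at -1.26. Above the sum lay APOH at 2.66, PLEKHG6 at 1.68, MAP1A at 1.23, ADGRE1 at 1.14, MAP2 at 1.04 and WNT3 at 0.95. FOSB lay at 0.88, FN1 at 0.60, FOS at 0.55 and ABCC3 at 0.33.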

How the results depend on the processing

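The joint effect was called higher for 3271 to 4647 and lower for 3031 to 4568 genes when single libraries were left out, and 4475 and 4579 in a fit to the 6 compared libraries. Of the 150 named genes with a joint call, 149 kept it in all alternatives, and ALDH1A1 lost it in 10. Departures were less stable: of 46 named genes 26 kept the call in every alternative and 20 lost it in at least 1. Called above the sum were 147 genes with upper quartile scaling, 265 without a filter on low counts and 216 with DESeq2, against 89, and 25 to 429 with single libraries left out. Below the sum were 489 without a filter and 381 with DESeq2, against 187, and 86 to 756 with libraries left out. Outside all other groups lay 236 and 161 genes without a filter, against 149 and 77, and 50 to 413 and 21 to 252 with libraries left out. Irradiation in shControl called 2135 to 5260 genes, against 3107. TRIM22 ranged from -0.36 to 0.036, turning to 0.036 without shTRIM22 irradiated replicate 3 (edgeR adjusted p = 0.916, range over its alternatives 0.290 to 0.980). APOH reversed to -0.764 CPM when effects were summed as CPM. The causes were not tested. Scalings moved the median joint effect by at most 0.023 and the median departure by at most 0.054 on the log2 scale.

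The main fit did not pair libraries by replicate number. Deviations of same-numbered libraries correlated weakly, at -0.00905 to 0.0194 between shControl sham and shTRIM22 irradiated and at no more than 0.0942 elsewhere. Between shControl sham and either singly treated group, however, 6 of 6 libraries correlated best with their own number. Whether same-numbered libraries share an origin was not tested. With the replicate block the joint effect was called for 3865 and 3742 genes, departures for 64 and 165, genes outside all other groups for 150 and 67, the single effects for 3114 and 8110, and TRIM22 stood at -0.19. Depth limits genes of few counts, such as ALPP, APOH, CA9 and TRIM22.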
